A study of Schizosaccharomyces pombe with 6 samples.

Results

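The 29 nucleoporin genes measured here encode the structural proteins of the nuclear pore complex of the fission yeast *Schizosaccharomyces pombe*. They were picked by symbol, as the genes whose array annotation reads *nup* followed by a number together with *cut11*, *npp106*, *nsp1*, *pom34*, *pom152*, *amo1*, *alm1*, *ely5* and *seh1*. The choice was made with earlier results of these data known. They make up 29 of the 2919 named *S. pombe* features on the array. All 6 arrays measured total RNA of *rae1-167* cells of the 972 strain background in YE4S, a rich yeast extract medium, with 3 arrays of cells kept at 25°C for 1 h and 3 of cells kept at 36°C for 1 h. The allele *rae1-167* is temperature-sensitive, and *rae1* encodes an mRNA export factor that binds at the pore. Cells of both groups carry this allele and wild type cells were not analysed here, so the warmer temperature and the loss of Rae1 function cannot be told apart. Nuclear and cytoplasmic RNA were not separated. The labels number the arrays of each temperature 1 to 3 but do not say whether they came from separate cultures, so p-values measure the spread between these arrays, which may be technical.

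Nuclear pore complexes are the channels through the nuclear envelope by which proteins and RNA pass between nucleus and cytoplasm. Each is built from many copies of a set of nucleoporins. A Y-shaped outer ring complex coats the membrane on both faces, an inner ring lines the centre, and a few membrane proteins anchor both. Nucleoporins with phenylalanine-glycine (FG) repeats fill the channel and bind transport receptors, with further proteins on the cytoplasmic side, where exported mRNA is released, and a basket on the nuclear side, where mRNA arrives.

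Each of the 29 genes was read by 1 probe set, and all 29 were above background on all 6 arrays, with background set at the level below which 90% of *S. cerevisiae* probe sets fell (14.0 to 21.3). Deposited signals of the nucleoporin genes ran from 34.2 to 5678, in arbitrary units of brightness. At 25°C their medians on replicates 1, 2 and 3 were 2432, 3234 and 3210, and at 36°C they were 974.7, 1577 and 1849. Medians over all named features ran from 1940 to 2621 at 25°C and from 1147 to 1580 at 36°C. Named features as a whole were lower at 36°C, with a median log2 fold change of -0.66 over all features, whereas the bacterial hybridisation spike-in controls differed by 0.06 on the log2 scale. For 3 of 7 control genes the signal near the 5′ end relative to the 3′ end, a measure of RNA integrity, was lower on every 36°C array. Their log2 differences were -1.43 to -0.33, and those of the other control genes were -0.16, -0.03, 0.17 and 0.12. The part of RNA integrity in the results below was not tested. Replicate 1 was the dimmest array for 28 of the 29 nucleoporin genes at 25°C and for 26 at 36°C, against 78.2% and 65.1% of all features.

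Of the 29 nucleoporin genes, 17 were lower at 36°C, none was higher and 12 did not pass the test (limma, Benjamini-Hochberg adjusted p under 0.05 over all 2919 features). This is 58.6% of the nucleoporin genes, where 51.9% of all features were lower and 12.1% higher, so the share that was lower lay near the background of the array. At an unadjusted p under 0.05 the counts were 18 lower and 0 higher, beside 1584 lower and 390 higher of the 2919 features. The median log2 fold change of the nucleoporin genes was -1.10, with quartiles at -2.03 and -0.29, beside -0.66 and quartiles at -1.60 and 0.03 for all features. Of the nucleoporin genes, 15 (51.7%) passed the test with at least 2-fold lower signal, beside 39.8% of all features, and 8, or 27.6%, passed the test with at least 4-fold lower signal, beside 18.1% of all features. For 18 genes (62.1%, beside 56.4% of all features) all 3 signals at 36°C lay below all 3 at 25°C. For none did the 36°C signals all lie above (15.0% of all features). For 11 genes the groups overlapped, beside 834 of the 2919 features. In 23 genes the 36°C signal was the lower one in all 3 replicate numbers, beside 65.4% of all features. In these bulk samples fewer cells that express a gene and less of its RNA in each cell cannot be told apart.

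**Figure D1:**
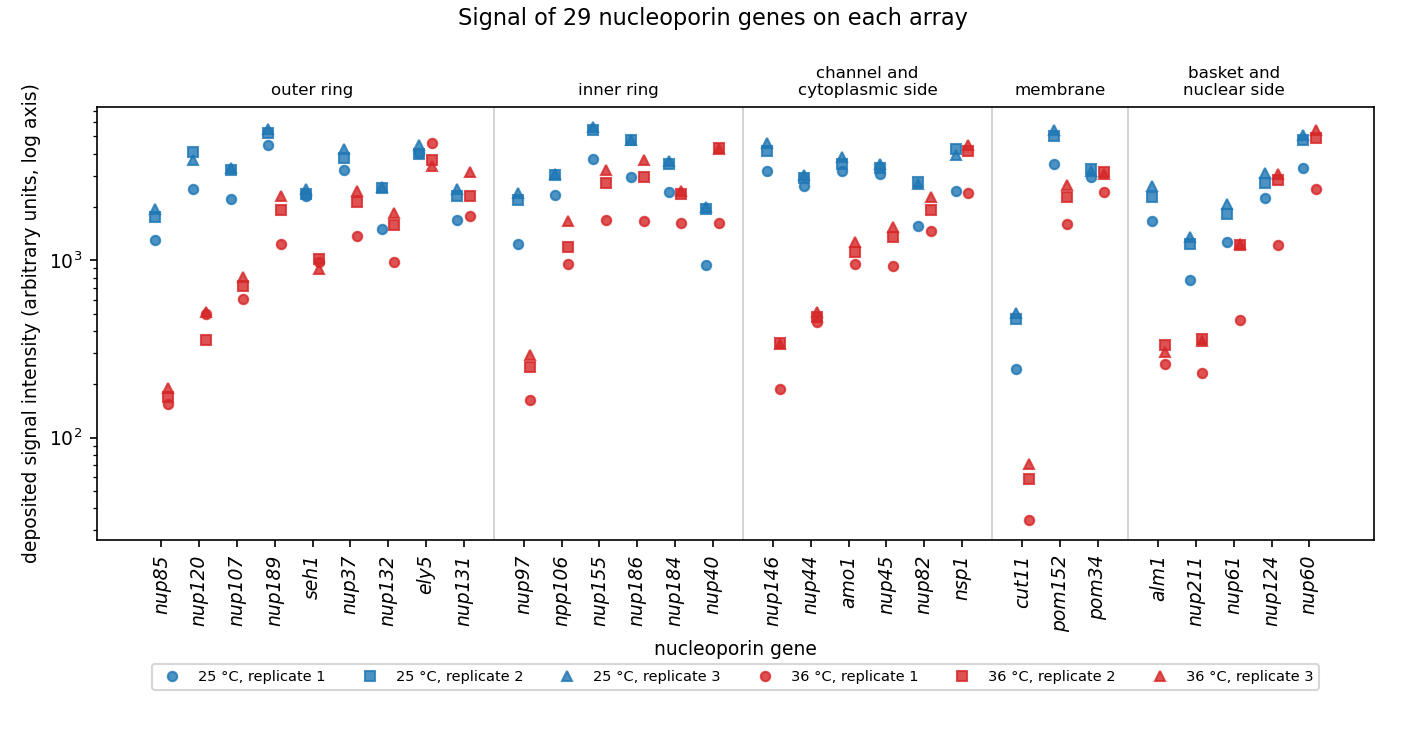
Signal of the 29 nucleoporin genes on each of the 6 arrays, by pore substructure. The horizontal axis names the genes, the vertical axis gives the deposited signal in arbitrary units on a log scale, and each point is 1 array (blue for 25°C, red for 36°C, with the shape marking the replicate number). Signals of *nup85*, *nup97* and *nup146* separate widely by temperature, while those of *ely5*, *nsp1*, *nup131* and *nup60* overlap.

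The nucleoporin genes differed widely among themselves, from -3.81 for *nup146* to 1.01 for *nup40* on the log2 scale. Each of the 5 substructures held a gene that was at least 4-fold lower at 36°C, and in 4 of the 5 another gene lay within 0.3 of 0. The main fit did not use the replicate numbers. Deviations from the group means correlated at 0.47, 0.38 and 0.29 between arrays of the same number. However, 25°C replicate 2 correlated more with 36°C replicate 3, at 0.44. When arrays of the same number were taken as pairs, with the number as a block, 21 nucleoporin genes were lower and 1 was higher. Of all features 59.0% and 16.0% were lower and higher with this block. No call was lost and 5 were gained, namely *nup61*, *nup186*, *nup132* and *nup184* as lower and *nup40* as higher. With both arrays of replicate 1 left out 22 were lower and 1 higher, beside 60.2% and 16.6% of all features.

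Of the 9 outer ring genes, 6 were lower at 36°C, 0 higher and 3 not past the test, with a median log2 fold change of -1.32. Over all features 51.9% were lower and the median was -0.66. After centring each array on its median, 5 of the 9 were lower and 2 higher, beside 34.5% and 39.6% of all features. The outer ring median was then -0.55, and -0.47 after quantile normalisation. The lowest outer ring genes were *nup85* and *nup120*, which encode arms of the Y-shaped complex. Signals of *nup85* (SPBC17G9.04c) were 1304, 1756 and 1941 at 25°C and 155, 169.8 and 192 at 36°C. The 2 groups lay far apart, with a 9.59-fold lower geometric mean at 36°C (log2 fold change -3.26 ± 0.18 (SE, n = 3 arrays a group), limma adjusted p = 3.3e-05). Signals of *nup120* (SPBC3B9.16c) were 2514, 4093 and 3682 at 25°C and 498, 356 and 513 at 36°C, again with no overlap (-2.90 ± 0.24, limma adjusted p = 1.2e-04). The other lower genes were *nup107*, which encodes a stem protein, with a log2 fold change of -2.03, *nup189* at -1.53, *seh1* at -1.32 and *nup37* at -0.94 (limma adjusted p = 0.015, or 0.057 without 25°C replicate 3). *nup189* encodes a precursor that is cut into Nup98, an FG protein to which Rae1 binds, and Nup96, an outer ring protein, while *seh1* and *nup37* encode small WD-repeat subunits. The other 3 did not pass the test, namely *nup132* at -0.60 (limma adjusted p = 0.15, or 0.0032 with the replicate block), *ely5*, which encodes a protein related to vertebrate ELYS, at -0.11 and *nup131* at 0.13. The 95% interval of *ely5* ran from -0.47 to 0.25 and that of *nup131* from -0.50 to 0.76. With *nup189* counted with the FG proteins, the outer ring had 5 of 8 genes lower and a median of -1.13.

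Among the 6 inner ring genes, 3 were lower (51.9% of all features were), 0 higher and 3 not past the test, with a median log2 fold change of -0.81. After centring 2 of the 6 were lower and 1 higher, beside 34.5% and 39.6% of all features. The inner ring median was then -0.05, beside 0.10 for all features. After quantile normalisation it was -0.29, beside -0.02 for all features. This set held both a gene that fell strongly and the nucleoporin gene with the highest log2 fold change. *nup97* and *npp106* encode counterparts of budding yeast Nic96, a scaffold of the inner ring. Signals of *nup97* (SPCC1620.11) were 1234, 2193 and 2389.5 at 25°C and 163, 252 and 291 at 36°C, which is 8.14-fold lower at 36°C with no overlap (-3.03 ± 0.33, limma adjusted p = 3.5e-04). For *npp106* (SPCC1739.14) the signals were 2329, 3039 and 3084 at 25°C and 956, 1196 and 1672 at 36°C, a smaller fall without overlap (-1.17 ± 0.24, limma adjusted p = 0.0053). The large scaffold gene *nup155* was also lower (-0.98 ± 0.29, limma adjusted p = 0.026), a call that was lost when 25°C replicate 2 (adjusted p = 0.081), 25°C replicate 3 (0.089) or 36°C replicate 2 (0.055) was left out. The scaffold genes *nup186* and *nup184*, counterparts of budding yeast Nup192 and Nup188, had log2 fold changes of -0.64 and -0.57 and did not pass the test, but did with the replicate block (limma adjusted p = 0.0065 and 0.0025). *nup40*, the counterpart of the membrane-binding linker Nup53, was the one nucleoporin gene with a higher signal at 36°C in all 3 replicate numbers. Its signals (SPAC19E9.01c) were 945, 1955 and 1989 at 25°C and 1629, 4298 and 4244 at 36°C. Replicate 1 was the dimmest at both temperatures, the groups overlapped and the test was not passed (1.01 ± 0.48, 95% interval -0.17 to 2.18, limma adjusted p = 0.11). Within replicate numbers the log2 ratios of *nup40* were 0.78, 1.14 and 1.09, and with the replicate block the adjusted p was 9.2e-04. Without replicate 1 the log2 fold change was 1.12 (limma adjusted p = 7.3e-06, 2 arrays a group).

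The 6 genes of the channel and the cytoplasmic side spanned the widest fall beside the smallest change. Of these, 4 were lower (51.9% of all features were), 0 higher and 2 not past the test, with a median log2 fold change of -1.53. The median was -0.76 after centring and -0.83 after quantile normalisation. *nup146* encodes the counterpart of Nup159, which in budding yeast docks the RNA helicase Dbp5 at the cytoplasmic face, where mRNA leaves the pore. Signals of *nup146* (SPAC23D3.06c) were 3184, 4112 and 4568 at 25°C and 188, 343 and 339 at 36°C. Every 36°C array was far below every 25°C array, a 14.0-fold lower geometric mean (-3.81 ± 0.28, limma adjusted p = 7.6e-05), and at percentile 1.27 of log2 fold change over all features. Channel FG proteins are encoded by *nsp1*, *nup44* and *nup45*, whose budding yeast counterparts Nsp1, Nup57 and Nup49 form 1 trimeric complex. Signals of *nup44* (SPBC19G7.15) were 2637, 2931 and 3023 at 25°C and 451, 482 and 509 at 36°C, with a narrow spread in both groups (-2.57 ± 0.11, limma adjusted p = 2.1e-05). *nup45* was 2.63-fold lower, and *amo1*, the counterpart of the cytoplasmic FG protein Nup42, was 3.15-fold lower. In contrast, signals of *nsp1* (SPAC26A3.15c) were 2470.4, 4234 and 3953 at 25°C and 2398, 4131 and 4497 at 36°C. The groups overlapped almost entirely (0.04 ± 0.32, 95% interval -0.74 to 0.81, limma adjusted p = 0.94). The cytoplasmic-side gene *nup82* did not pass the test either (-0.29 ± 0.28), although it was lower without replicate 1 (-0.38, limma adjusted p = 0.018).

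Of the 3 genes for pore membrane proteins, *cut11* and *pom152* were lower and *pom34* did not pass the test. Their median log2 fold change was -1.10, and 51.9% of all features were lower. The median was -0.33 after centring and -0.61 after quantile normalisation. *cut11* encodes the counterpart of Ndc1, which anchors both pores and the spindle pole body in the nuclear envelope. Its signals (SPAC1786.03), the dimmest of the 29 genes, were 245, 467 and 502 at 25°C and 34.2, 58.6 and 71 at 36°C. All 3 arrays at 36°C lay below all 3 at 25°C and above background (-2.89 ± 0.38, limma adjusted p = 8.1e-04). Signals of *pom152* (SPBC29A10.07), whose product rings the pore within the envelope lumen, were 3476, 5050.2 and 5409 at 25°C and 1608, 2279.8 and 2643 at 36°C, without overlap (-1.10 ± 0.25, limma adjusted p = 0.0093). Signals of *pom34* (SPAC1002.02) were 2948, 3287 and 3209.8 at 25°C and 2416, 3155 and 3081 at 36°C. These overlapped, with a 95% interval of -0.48 to 0.21 around a log2 fold change of -0.14.

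In the basket and on the nuclear side 2 of 5 genes were lower, 0 higher and 3 not past the test. Over all features 51.9% were lower. The median log2 fold change of the 5 genes was -0.93. That median was -0.46 without 36°C replicate 1, -0.17 after centring and 0.071 after quantile normalisation. Both lower genes encode long coiled-coil proteins related to vertebrate Tpr and budding yeast Mlp1, the main fibres of the basket. Signals of *alm1* (SPAC1486.04c) were 1663, 2283 and 2613 at 25°C and 259.7, 332 and 305 at 36°C, a 7.23-fold lower geometric mean (-2.85 ± 0.20, limma adjusted p = 6.5e-05). Signals of *nup211* (SPCC162.08c) were 769.8, 1229 and 1351 at 25°C and 231, 362 and 349 at 36°C, again without overlap (-1.82 ± 0.28, limma adjusted p = 0.0016). *nup61*, the counterpart of Nup2, had no overlap between the groups and a log2 fold change of -0.93, but its spread was wide (95% interval -1.97 to 0.10) and it did not pass the test, but did with the replicate block (limma adjusted p = 0.0093). *nup124*, an FG protein gene needed for nuclear import of the Tf1 retrotransposon, stood at -0.28 with overlapping groups. Signals of the basket anchor gene *nup60* (SPCC285.13c) were 3318, 4763 and 5071 at 25°C and 2513, 4926 and 5412 at 36°C, with overlapping groups (-0.09 ± 0.33, limma adjusted p = 0.85). *nup124* and *nup60* turned slightly above 0 without replicate 1, at 0.02 and 0.07.

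**Figure D2:**
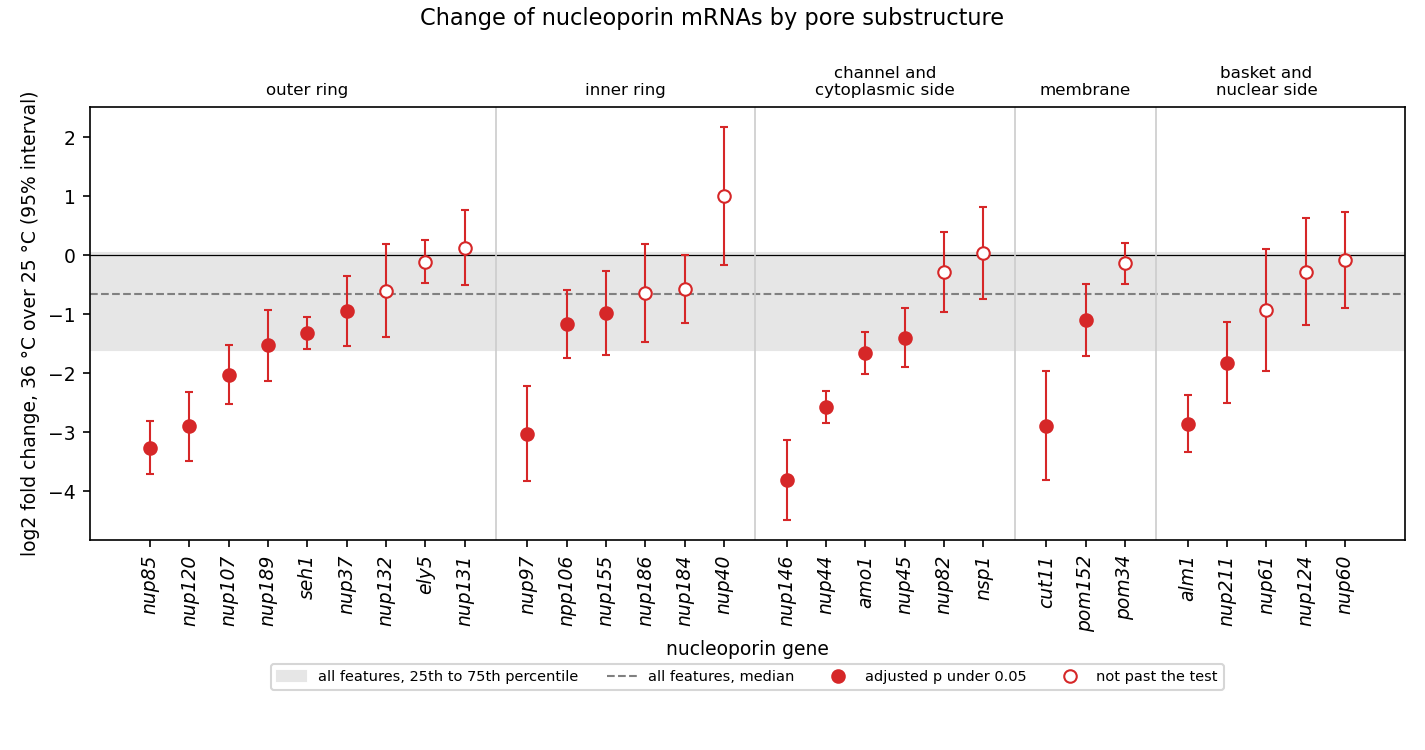
Log2 fold change of each nucleoporin gene, 36°C over 25°C, by pore substructure. The vertical axis gives the limma log2 fold change with its 95% interval (n = 3 arrays a group), filled points passed the adjusted test, and the grey band and dashed line give the quartiles and the median of all 2919 features (-1.60, 0.03 and -0.66). Every substructure holds filled points below the band, such as *nup85*, *nup97*, *nup146*, *cut11* and *alm1*, and all but the inner ring hold open points within 0.3 of 0.

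The widely differing changes were also compared within each array, where a scaling factor of the array cancels, for 3 pairs of related genes. A ratio between 2 probe sets gives no order of their levels, so the change of the ratio with temperature is what was measured. *nup131* and *nup132* both encode counterparts of budding yeast Nup133 in the stem of the outer ring complex, and in fission yeast Nup131 sits on the cytoplasmic and Nup132 on the nuclear side. Signals of *nup131* (SPBP35G2.06c) were 1687, 2321 and 2536 at 25°C and 1781, 2294 and 3165 at 36°C, and those of *nup132* (SPAC1805.04) were 1494, 2575 and 2582 at 25°C and 973, 1577 and 1849 at 36°C. Their log2 ratio (*nup131* to *nup132*) moved from 0.18, -0.15 and -0.03 at 25°C to 0.87, 0.54 and 0.78 at 36°C, a difference of 0.73 ± 0.14 (SE). The log2 ratio of *npp106* to *nup97* went from 0.92, 0.47 and 0.37 at 25°C to 2.55, 2.25 and 2.52 at 36°C, a difference of 1.85 ± 0.19. For *nup211* to *alm1* it went from -1.11, -0.89 and -0.95 at 25°C to -0.17, 0.12 and 0.19 at 36°C, a difference of 1.03 ± 0.13. In all 3 pairs every 36°C array lay above every 25°C array, but the direction follows only from which gene was put first. The exact permutation test (two-sided) gave p = 0.10 for each pair and 0.10 after adjustment over the 3 pairs. This is the smallest value that 3 arrays against 3 allow, so this design cannot reach 0.05. Each difference is the gap between the 2 log2 fold changes given above and adds no separate evidence. How often other pairs of features separate in this way was not counted.

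**Figure D3:**
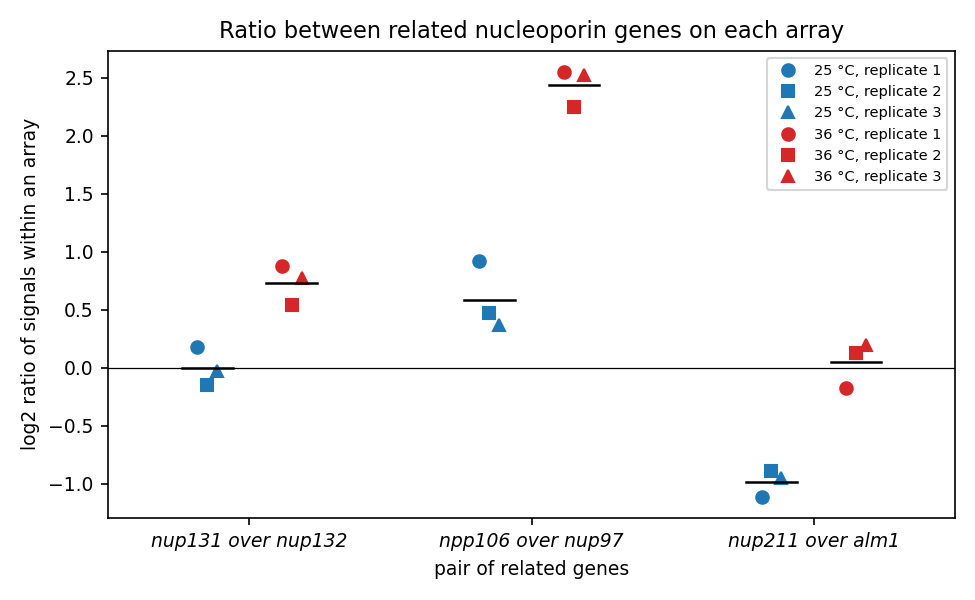
Log2 ratio of the signals of 2 related nucleoporin genes on each array. The vertical axis gives the log2 ratio within an array, each point is 1 of 6 arrays (blue for 25°C, red for 36°C, shape for the replicate number) and the bars are the means of 3. The red points lie above the blue in each pair, with mean differences of 0.73, 1.85 and 1.03, a direction set by which gene was put first.

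The direction given to the mildly changed genes depended on how the arrays were scaled. After centring each array on its median, 14 nucleoporin genes were lower and 7 higher (34.5% and 39.6% of all features) and their median was -0.33 beside 0.10 for all features. After quantile normalisation 16 were lower and 4 higher (33.9% and 30.3% of all features), with a median of -0.42 beside -0.02. After scaling to the spike-in controls 18 were lower and 0 higher (54.8% and 11.7% of all features). The 7 genes that were higher after centring were *nup82*, *pom34*, *ely5*, *nup60*, *nsp1*, *nup131* and *nup40*, at 0.47 to 1.77, and of these *pom34*, *nsp1*, *nup131* and *nup40* were also higher after quantile normalisation. In contrast, 13 genes were lower under all 4 scalings, and the same 13 under all 17 alternative settings. These were *nup85*, *nup120*, *nup107*, *nup189*, *seh1*, *nup97*, *npp106*, *nup146*, *nup44*, *amo1*, *nup45*, *cut11* and *alm1*. The share of all features that were lower under every setting was not counted, so these 13 have no background share to be read against. Of the other genes called lower, *pom152*, *nup155* and *nup37* no longer passed the test after centring and *nup211* after quantile normalisation, but all 17 kept a log2 fold change below 0 under the 4 scalings. The extremes were the same genes each time, with *nup146* lowest (-3.04 after centring, -2.79 after quantile normalisation) and *nup40* highest (1.77 and 1.80).

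**Figure D4:**
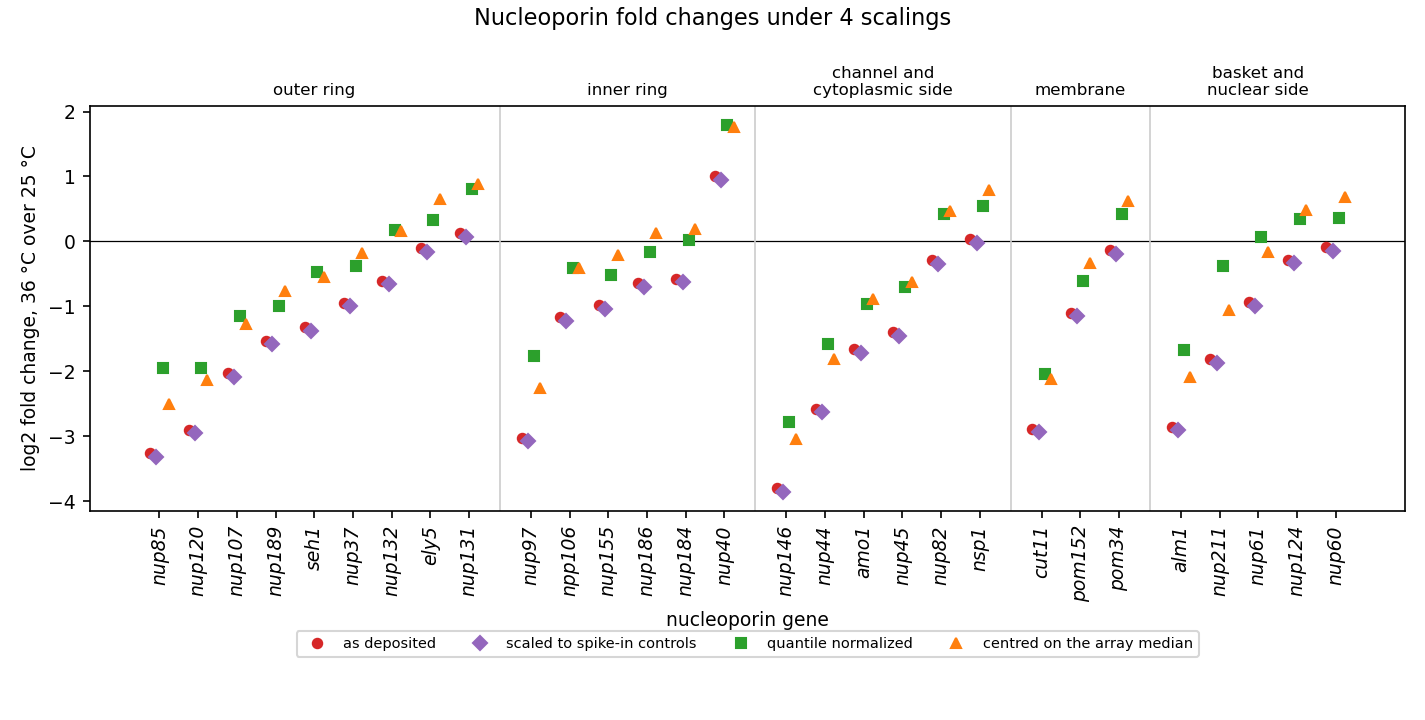
Log2 fold change of each nucleoporin gene, 36°C over 25°C, under 4 scalings of the arrays. The horizontal axis names the genes by substructure, the vertical axis gives the log2 fold change, and the point shapes mark the deposited scaling, the spike-in controls, quantile normalisation and centring on the array median. Centring and quantile normalisation lift all 29 genes, so that some, such as *nup82*, *pom34*, *ely5* and *nup60*, cross 0, while *nup146*, *nup85* and *nup97* stay below -1.

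Over the 29 genes the correlation between the 25°C log2 signal and the log2 fold change was 0.23 (Pearson) and 0.15 (Spearman), and 0.08 and 0.08 without *cut11*, values given as a description because the genes share the same 6 arrays and because signal depends on the probe set. Over all features they were -0.15 and 0.05. Some nucleoporin genes lie side by side in the genome. *alm1* and *nup189* are neighbours on chromosome I (-2.85 and -1.53), and *ely5* and *pom152* on chromosome II (-0.11 and -1.10). The span of 9 nucleoporin genes overlaps another coding gene in the RefSeq annotation, and for 6 of them the partner was measured. *nup45* overlaps *ppk8*, which had a log2 fold change of 2.12, *seh1* overlaps *nxt2* (0.00) and *nup85* overlaps *krs1* (-0.73). *ely5* overlaps *exo1* (-1.44), *nup155* overlaps *rmt1* (-1.49) and *pom34* overlaps *gls2* (-0.91). The part of these overlaps in the signals was not tested.

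The soluble transport machinery that works with the pore was measured by the same fit. Measured here were 19 genes for karyopherins, the transport receptors, and for Ran, the GTPase that gives transport its direction. Of these 13 were lower, 0 higher and 6 not past the test, beside 51.9% of all features lower. After centring 8 of the 19 were lower and 5 higher, beside 34.5% and 39.6% of all features. The median log2 fold change of the list was -1.11 (-0.34 after centring, -0.44 after quantile normalisation). The tRNA exportin gene *los1* had the largest change, with signals of 2877, 5015 and 4639.6 at 25°C and 401, 413 and 546 at 36°C (-3.18 ± 0.25, limma adjusted p = 9.6e-05). It was followed by *mog1*, which encodes a Ran-binding protein, with signals of 2880.4, 3071 and 3664 at 25°C and 663, 649 and 679.6 at 36°C (-2.26 ± 0.13). The Ran gene *spi1* itself stood at 0.01 and did not pass the test, but was called higher after centring (0.77).

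Of 10 measured mRNA export genes 8 were lower, 0 higher and 2, *mlo3* and *uap56*, not past the test. Over all features 51.9% were lower. After centring 5 of the 10 were lower and 2, *mlo3* and *uap56*, were higher, beside 34.5% and 39.6% of all features. The calls of *crp79*, *mex67* and *sus1* were lost. *crp79* lay near background, with 36°C signals of 12.8, 12.5 and 20 against a background of 14, 15.2 and 16.7. The list median was -1.45 (-0.68 after centring, -0.75 after quantile normalisation). *gle1* encodes the activator of the helicase Dbp5, which in budding yeast is docked by the counterpart of Nup146. Signals of *gle1* were 556, 703 and 874 at 25°C and 36.2, 35.7 and 53.1 at 36°C, the largest change of this list (-4.09 ± 0.23, limma adjusted p = 3.5e-05). The centrin gene *cdc31*, shared by the export complex TREX-2 and the spindle pole body, followed with signals of 1556, 1359.7 and 1603 at 25°C and 206, 174 and 213 at 36°C (-2.93 ± 0.13). The mutated gene *rae1* had signals of 4299, 4477 and 4717 at 25°C and 1634, 1497 and 1530.3 at 36°C, without overlap (-1.53 ± 0.10, limma adjusted p = 5.6e-05). *nup189*, which encodes the protein that docks Rae1, also stood at -1.53, at percentile 26.8 of all features. A relation between the changes of these genes was not tested.

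Genes for nuclear envelope membrane proteins and pore assembly were divided, with 5 of 13 lower, 3 higher and 5 not past the test. Over all features 51.9% were lower and 12.1% higher. The median of the list, -0.15, turned to 0.61 after centring and 0.39 after quantile normalisation. After centring 4 were lower and 8 higher, beside 34.5% and 39.6% of all features. After quantile normalisation only 1 was lower and 7 were higher, beside 33.9% and 30.3% of all features. The inner nuclear membrane protein genes *bqt4* and *ima1* had the largest changes. Signals of *bqt4* were 1673, 1635 and 1686 at 25°C and 121, 104 and 125 at 36°C (-3.84 ± 0.12, limma adjusted p = 1.4e-05), and those of *ima1* were 401, 1041 and 941 at 25°C and 98.7, 182 and 178 at 36°C (-2.31 ± 0.43). The higher genes were *nem1*, the catalytic subunit of the phosphatase that activates lipin (0.99), *apq12* (0.59) and *tts1* (0.44), the latter pair coding for membrane proteins of the endoplasmic reticulum and nuclear envelope. In contrast, *spo7*, for the regulatory subunit of the same phosphatase, was lower (-1.48, limma adjusted p = 0.0054), also after centring (-0.71). The call of *spo7* after quantile normalisation is not given here. The lipin gene *ned1* stood at -0.15 and did not pass the test. The difference between these lists and the nucleoporin genes was not tested.

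**Figure D5:**
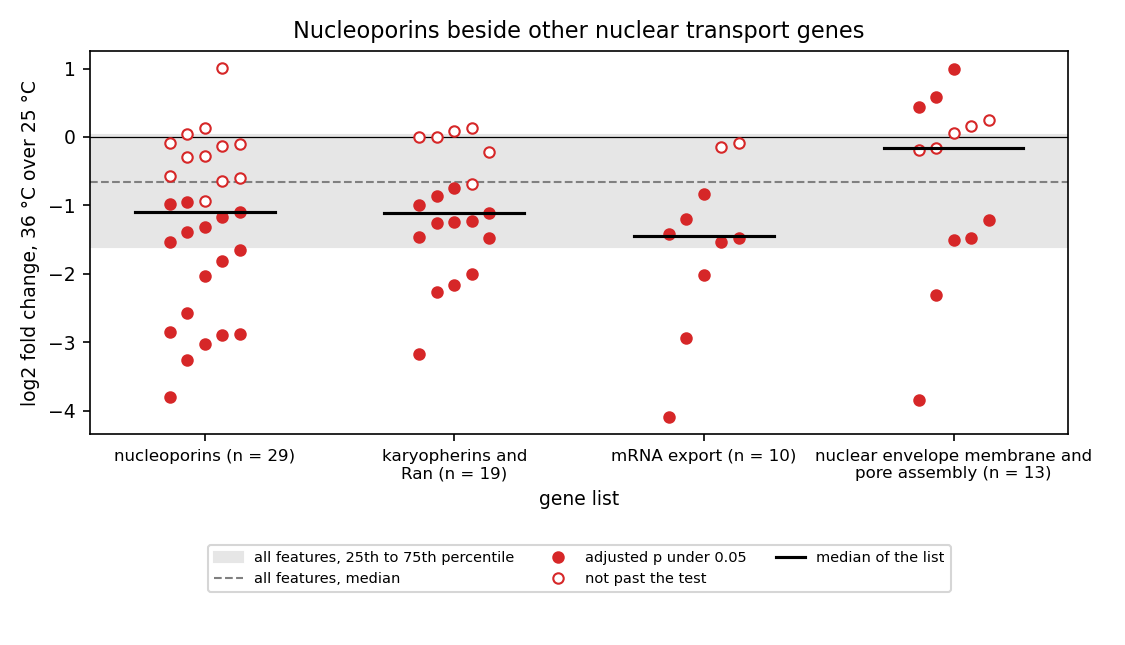
Log2 fold change of the nucleoporin genes beside 3 lists of other nuclear transport and nuclear envelope genes. The horizontal axis gives the list with its number of genes, the vertical axis the log2 fold change at 36°C over 25°C, each point is 1 gene (filled where the adjusted test was passed), black bars are list medians (-1.10, -1.11, -1.45 and -0.15), and the grey band and dashed line are the quartiles and median of all features. Only the nuclear envelope list holds filled points above 0.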

How the data were processed

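Total RNA of 6 *rae1-167* samples was labelled as biotinylated cRNA and hybridised to GeneChip Yeast Genome 2.0 arrays, 1 sample an array. The authors scanned these with a GeneChip Scanner 3000 and deposited 1 signal intensity per probe set and array from GCOS 1.4, with default settings and global scaling. The scaling target is not given in the sources used here, nor which probe sets set it, and 1 scaling factor an array moves every gene's value alike. Of 10928 probe sets, 2917 named 1 *S. pombe* gene, 20 named several, 2601 named *S. cerevisiae* genes, 213 were controls and 5177 were unnamed. Probe sets of 1 gene were averaged, which gave 2899 genes, and with the 20 probe sets of several genes 2919 features were tested, and all 29 nucleoporin symbols were unchanged in RefSeq (assembly ASM294v3).

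Deposited intensities were floored at 1, converted to log2 and fitted by lmFit and eBayes of limma 3.58.1 under R 4.3.3 (two-sided tests of temperature, adjusted by Benjamini-Hochberg over all 2919 features, threshold 0.05). This main fit used no further scaling, no filter and no replicate block. Only 3 arrays a group limit the precision. The fit was also run on simulated data in which a small part of the features changed, up and down alike. Calls on the real arrays were mostly lower, so no conclusion is drawn from that run. Figures and counts were made with Python 3.11.15. The pairing came from the replicate numbers in the labels, and deviations from the group means correlated at 0.47, 0.38 and 0.29 between arrays of the same number, all above 0.1, although 25°C replicate 2 correlated with 36°C replicate 3 at 0.44. Alternatives covered scaling, pseudocount, filters, the block and leaving out arrays. Substructures follow general knowledge of the pore. Every nucleoporin gene is named, with values on each array for the 2 lowest and the highest of each substructure and for related pairs. In each other list the 2 genes past the test with the largest change are named, and *rae1*. The other genes named were singled out after their values were seen. The members and gene lists were chosen with earlier results of these data known.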

Additional observations from a re-analysis of the deposited data

How the results depend on the processing

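The count of lower nucleoporin genes was 17 and stayed between 14 and 22 under every alternative tried, and it ran from 15 to 19 when 1 array was left out. Over all features the lower count ran from 990 to 1756 under the alternatives. With 1 array left out it ran from 1307 to 1551. The count of higher nucleoporin genes moved from 0 to 7 after centring, with or without the replicate block, and to 4 after quantile normalisation, and to 1 with the replicate block alone and without replicate 1. It ran from 0 to 1 when 1 array was left out, beside 275 to 455 over all features. The median log2 fold change of the 29 genes, -1.10, was -0.33 after centring, with or without the replicate block, -0.42 after quantile normalisation, and -1.29 to -0.89 when 1 array was left out. The basket median ran from -1.17 to -0.46 when 1 array was left out. Over all features centring gave 1007 lower and 1155 higher and quantile normalisation 990 and 883, beside 1514 and 354, and 1261 were higher with centring and the replicate block. The replicate block changed no nucleoporin call but the 5 named with the results.

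Quantile normalisation turned the basket median to 0.071, *nup61* to 0.071, *nup132* to 0.18, *nup184* to 0.017, *nup82* to 0.43, *nup124* to 0.35, *pom34* to 0.42, *ely5* to 0.33 and *nup60* to 0.36. Centring, with or without the replicate block, turned *nup186* to 0.12, *nup132* to 0.16, *nup184* to 0.19, *nup82* to 0.47, *nup124* to 0.48, *pom34* to 0.63, *ely5* to 0.65 and *nup60* to 0.68. Without replicate 1 *nup124* was at 0.02 and *nup60* at 0.07. When 1 array was left out *nup124* ran from -0.52 to 0.14, *nup60* from -0.29 to 0.26, *nsp1* from -0.21 to 0.32 and *nup131* from -0.089 to 0.33, and *nsp1* was at -0.021 after spike-in scaling. Calls were gained for *nup132* and *nup184* without 25°C replicate 1 (limma adjusted p = 0.0496 and 0.028) and for *nup40* without 36°C replicate 1 (0.012). Testing the unnamed probe sets too lost *nup155*. The within-array differences of the 3 related pairs ran from 0.65 to 0.82, 1.75 to 2.02 and 0.96 to 1.14 when 1 array was left out. The cause of these shifts was not tested. Global scaling and 3 arrays a group limit what can be said of genes near 0. The comparison of fold change with protein length was not run.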
